A study of Mus musculus with 4 samples.

Results

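Cytosolic aminoacyl-tRNA synthetase genes and the amino acid response genes grouped around the transcription factor ATF4 were followed in RNA sequencing libraries of activated lung group 2 innate lymphoid cells (ILC2s), innate lymphocytes that lack antigen receptors and make type 2 cytokines on contact with IL-33. The genes were chosen by name, as 20 genes of cytosolic synthetases and 15 amino acid response genes. No rule on their values was used, but earlier results of these data were known. All 35 were found among the 22558 genes of the deposited tables, and 31 of them were among the 11711 genes that passed the study's filter on low values and were tested. Atf5, Chac1, Cth and Trib3 did not pass the filter.

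The WT group held 2 libraries from C57BL/6 mice, and the other group held 2 libraries of mice labelled ICAM-1 KO (B6.129S4-Icam1 tm1Jcgr/J), with a constitutive loss of the adhesion molecule ICAM-1 in all cells, called KO-labelled libraries below since Icam1 RNA was not lower in them. All mice were 6 weeks old and had received 3 intranasal challenges with 0.5 µg of recombinant mouse IL-33, so every library comes from challenged animals and no unchallenged library was compared here. Lungs were taken on day 4, and CD45+ Lin- ST2+ CD127+ cells were sorted from pools of 4 mice per library, so that the libraries do not show the spread between single mice. The libraries held 24796148 to 28782471 counts. On the log2 scale of depth-scaled counts, libraries of the same label correlated across genes with r = 0.966 for WT and 0.969 for the other label, and libraries of different labels with r from 0.930 to 0.938. Icam1 itself had normalized counts of 85.2 and 83.3 in WT and of 97.6 and 110 in the KO-labelled libraries, with no decrease (log2 fold change 0.33, edgeR adjusted p = 0.0745). These counts cover the whole gene and do not show which exons were read. The paper states that the ICAM-1-deficient mice lack ICAM-1, with the protein measured by flow cytometry on lung ILC2s after IL-33. RNA counts do not measure that protein. All 17 ILC2 genes listed as a check of the cell type, among them Il1rl1, Gata3 and Il7r, were detected in every library. So were all listed genes of endothelium, T cells and B cells, so detection alone does not show how pure the sorted cells were.

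Aminoacyl-tRNA synthetases join each amino acid to its tRNA and so feed the ribosome. They fall into class I and class II by the fold of their catalytic domain, and several of them, together with scaffold proteins, form the multi-tRNA synthetase complex of the cytosol. When amino acids run short, uncharged tRNA activates the kinase GCN2 (gene Eif2ak4), which phosphorylates the initiation factor eIF2. General translation then slows while the mRNA of ATF4 is translated more, and ATF4 switches on genes of amino acid transport, serine, glycine and asparagine synthesis, one-carbon metabolism, tRNA charging and feedback control. ATF4 is thus regulated in large part through translation of its mRNA, which RNA counts do not measure. Since lymphocytes raise protein synthesis on activation, these genes are commonly high in activated lymphocytes.

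In the comparison of the KO-labelled libraries with WT, 4 of the 31 tested genes fell and none rose. The genes that fell were Shmt2 and Psat1, enzymes of glycine and serine synthesis, and Kars and Hars, the lysyl- and histidyl-tRNA synthetases, each by 20.6% to 26.2%. A gene is said to have risen or fallen when its adjusted p was under 0.05 in edgeR's quasi-likelihood test, adjusted over all 11711 genes. The 4 genes make up 12.9% of the 31, and 4.97% of all tested genes fell by the same rule. In the other direction 0 of 31 passed against a background of 8.8%, although 2 (Atf4 and Sesn2) were higher at an unadjusted p under 0.05 (17.1% of all tested genes were) and DESeq2 called 1 of them (Sesn2). Asking in addition for a change of at least 2-fold left no gene, against a background of 0.538% lower and 4.94% higher.

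The direction was shared more widely than the calls. The log2 fold change was below 0 for 27 of the 31 tested genes and above 0 for Sesn2, Cebpb, Atf4 and Eprs, while the median was -0.20 for the 31 genes and 0.01 for all genes tested. Both KO-labelled libraries lay below both WT libraries for 22 of the 31 genes and above them for 2. Over all tested genes, 31.3% lay fully below and 28.3% fully above, so with 2 libraries on each side such a separation is frequent. A further 7 of the 31 genes, Sesn2 higher and the others lower, had an adjusted p between 0.05 and 0.1, and 12 in all were lower at an unadjusted p under 0.05, where 13.1% of all tested genes were. Since the libraries are bulk RNA, fewer cells of a type and less RNA per cell cannot be told apart in any of these values.

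**Figure D1:**
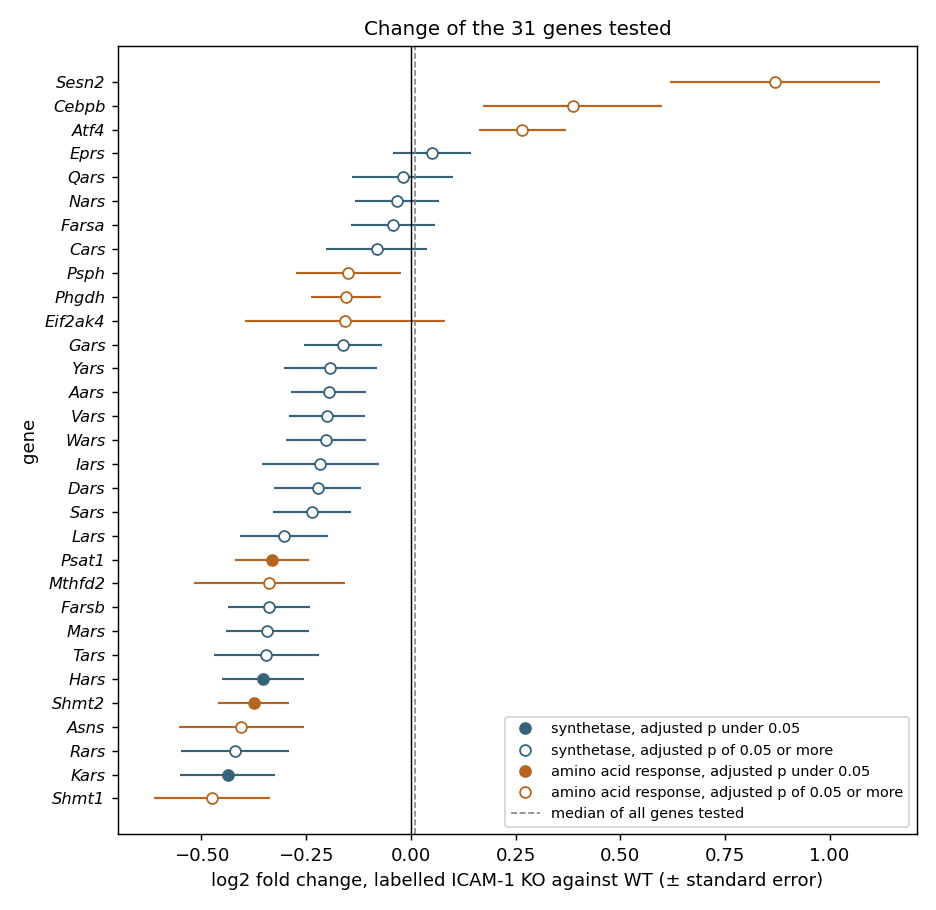
Log2 fold change (KO-labelled libraries against WT, x axis) of the 31 tested genes (y axis), with bars of 1 standard error, filled where the adjusted p was under 0.05 and with the median of all genes tested as a dashed line. Most points lie left of 0, between -0.47 and -0.02, only 4 are filled, and Sesn2 at 0.87 stands farthest to the right.

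ATF4 binds DNA as a dimer with C/EBP proteins at the C/EBP-ATF response element. Its letters TGATGNAA were searched on both strands of a window from 250 bases before to 50 bases after the RefSeq start site (GRCm38.p6). A match shows that a gene carries these letters near its start, not that the element is bound. Elements outside the window were not searched. Such a window was at hand for 27 of the 35 genes. Cars, Hars, Lars, Nars, Rars, Vars, Wars and Cth had no entry. The letters occurred in 8 of the 27 windows (29.6%), against 1219 of 27025 windows of all genes (4.51%). The members were chosen around ATF4, so this difference is not independent of the choice. The 8 genes were the synthetases Aars, Gars, Iars, Tars and Yars, the asparagine synthetase Asns, the pseudokinase gene Trib3 and the glutathione-degrading enzyme Chac1. The matches of 7 of them, all but Aars, are printed below along the strand of the gene, with the element in capitals and 10 bases on each side. Capitals that end in ATCA carry the element on the opposite strand.
Gars, chr6:55037961-55037988, plus strand: ggctgcgctaTTTCATCAtgcaccgggc
Iars, chr13:49682127-49682154, plus strand: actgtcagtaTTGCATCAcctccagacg
Tars, chr15:11399656-11399683, minus strand: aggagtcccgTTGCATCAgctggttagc
Yars, chr4:129189896-129189923, plus strand: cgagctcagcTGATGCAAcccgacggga
Asns, chr6:7693215-7693242, minus strand: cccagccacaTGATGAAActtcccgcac
Trib3, chr2:152344029-152344056, minus strand: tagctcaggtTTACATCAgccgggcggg
Chac1, chr2:119351039-119351066, plus strand: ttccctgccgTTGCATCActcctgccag

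Most of these 7 matches lay near the start site. Those of Yars, Iars and Trib3 began 3, 7 and 14 bases after it, and those of Tars, Asns and Gars began 15, 23 and 30 bases before it. That of Chac1 began 193 bases before the start. The E-box letters CACGTG, bound by MYC and by TFE3-type factors, read the same on both strands and do not overlap any of these matches. They occurred in 4 of the 27 windows (14.8%), those of Aars, Farsb, Iars and Tars, against 2187 of the 27025 windows (8.09%). Of the 4 genes that fell, Kars, Psat1 and Shmt2 had neither motif in the window and Hars had no entry. Of the genes with the C/EBP-ATF element, Aars, Gars, Iars, Tars, Yars and Asns were tested, with log2 fold changes from -0.41 (Asns) to -0.16 (Gars), and none of them passed the test.

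**Figure D2:**
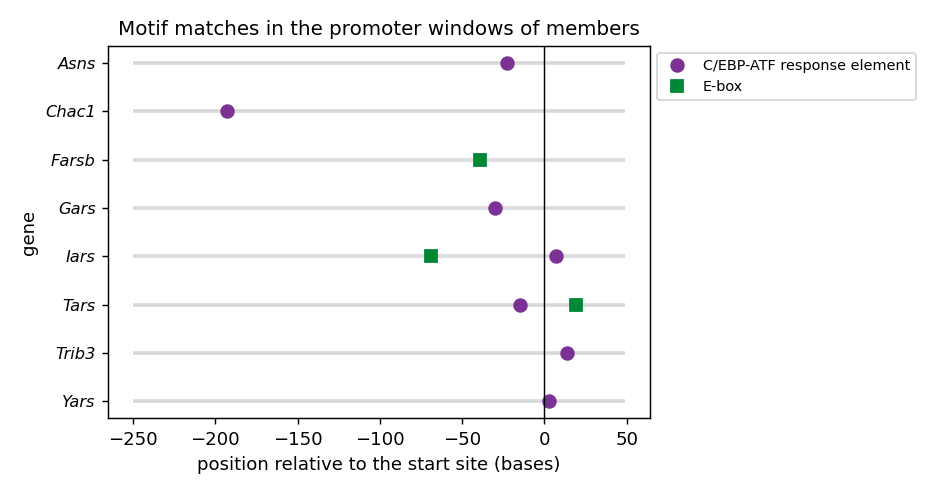
Start of each motif match relative to the RefSeq start site (x axis, bases) in the promoter windows of the genes with a match other than Aars (y axis), with circles for the C/EBP-ATF response element and squares for the E-box. Most circles lie within 30 bases of the start site, and Iars and Tars carry both motifs.

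All 20 synthetase genes were detected in every library, at normalized counts from 50.8 to 462. The normalized count is the count plus 1 times 1 factor per library that brings the upper quartile of the genes to the same value. Per kilobase of exon, the normalized level in WT was highest for Gars, the glycyl-tRNA synthetase (83.6 ± 4.27, SD, n = 2 libraries here and below), and for Vars, the valyl-tRNA synthetase (77.4 ± 7.08). Neighbours in the order were taken as not differing where their means were no farther apart than the sum of their SDs, which held for Gars and Vars. Hars came next (55.0 ± 3.75) and differed from Farsb beyond that sum. Cars, the cysteinyl-tRNA synthetase, was lowest (8.50 ± 0.548), so that the levels per kilobase spanned 9.83-fold. From Dars to Wars, and again from Iars to Tars, no neighbours differed beyond the sum of their SDs. In the KO-labelled libraries the top of the order was again Gars (73.3 ± 5.03), Vars (66.2 ± 0.669) and Hars (42.3 ± 0.116), and the lowest was again Cars (7.88 ± 0.233). These levels use the summed length of all annotated exons. Per kilobase of coding sequence, Dars, the aspartyl-tRNA synthetase, came first in WT at 122, ahead of Gars at 119 and Vars at 113. Hars, at 88.2, then came after Nars, Kars and Sars, Cars was again lowest at 22.4, and the span was 5.43-fold.

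Kars and Hars fell, and none of the other 18 synthetase genes passed the test in either direction. Kars (ENSMUSG00000031948.14, chr8:111993443-112011323 of mm10, minus strand) encodes the lysyl-tRNA synthetase of the cytosol and, by another splice form, of mitochondria, and the counts do not separate the forms. Its normalized counts were 172 and 191 in WT and 120 and 142 in the KO-labelled libraries. Both of the latter lay below both WT libraries, a decrease of 26.2% (log2 fold change -0.44, standard error 0.113, edgeR adjusted p = 0.0361). Hars (ENSMUSG00000001380.7, chromosome 18, minus strand) had normalized counts of 128 and 141 in WT and of 104 and 103 in the KO-labelled libraries. These groups did not overlap either, and Hars was 21.7% lower (log2 fold change -0.35, standard error 0.0979, edgeR adjusted p = 0.0448). Hars overlaps Hars2, the mitochondrial histidyl-tRNA synthetase gene on the other strand, and no source used here says if strand was used in counting, so reads of the overlap may belong to either gene. With 1 library left out, a fit in which the lone library of a group is assumed to vary like the other group, Hars lost the call whichever library was missing (adjusted p 0.0709 to 0.18). Kars lost it without WT 1, WT 2 or the first KO-labelled library (adjusted p 0.0717, 0.161 and 0.157) and kept it without the second (adjusted p 0.00657), with a log2 fold change from -0.58 to -0.31.

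The 3 most abundant synthetase genes by normalized count were Vars, Gars and Eprs. Vars had 462 and 406 in WT and 368 and 374 in the KO-labelled libraries. Its groups did not overlap, with a log2 fold change of -0.20 (standard error 0.091, edgeR adjusted p = 0.177). Gars had 251 and 270 against 218 and 240, also without overlap (log2 fold change -0.16, standard error 0.0937, edgeR adjusted p = 0.281). Eprs, which encodes the bifunctional glutamyl- and prolyl-tRNA synthetase, had 255 and 257 in WT and 244 and 276 in the KO-labelled libraries. The WT values lay between the other pair, and the log2 fold change was 0.05 (standard error 0.094, edgeR adjusted p = 0.762). With 1 library left out, the log2 fold change ran from -0.29 to -0.10 for Vars, from -0.24 to -0.08 for Gars and from -0.05 to 0.15 for Eprs.

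The other synthetase genes had log2 fold changes from -0.42 (Rars) to -0.02 (Qars). Mars and Farsb came closest to the threshold, at -0.34 each (adjusted p 0.051 and 0.0512 in edgeR's test). Mars, the methionyl-tRNA synthetase, had normalized counts of 149 and 136 in WT and of 115 and 105 in the KO-labelled libraries. Farsb, the beta subunit of the phenylalanyl-tRNA synthetase, had 116 and 120 against 95.3 and 88.0. Both genes were separated between the labels, and both overlap other genes. Mars overlaps the stress factor gene Ddit3 on the other strand. Farsb overlaps 4833412K13Rik on the same strand and Sgpp2 and Gm28995 on the other, so part of its count may belong to those genes. The alpha subunit gene Farsa differed far less (88.8 and 88.1 against 86.9 and 81.9, log2 fold change -0.04, edgeR adjusted p = 0.822). The difference between the changes of the subunit genes was not tested. Rars, the arginyl-tRNA synthetase, had 86.1 and 107 in WT and 74.5 and 67.3 in the KO-labelled libraries (log2 fold change -0.42, edgeR adjusted p = 0.0613). Its log2 fold change was -0.57 without WT 1 (adjusted p 0.0465) and -0.25 without WT 2 (adjusted p 0.268).

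In all, 16 of the 20 synthetase genes had both KO-labelled libraries below both WT libraries, none had them above, and Eprs, Iars, Nars and Qars overlapped. Among all tested genes, 31.3% lay fully below and 28.3% fully above. Qars, the glutaminyl-tRNA synthetase, had 73.4 and 82.3 against 81.6 and 69.3, and Nars, the asparaginyl-tRNA synthetase, had 163 and 174 against 152 and 171. Iars, the isoleucyl-tRNA synthetase, varied within both labels, with 122 and 98.6 against 104 and 82.9. The summed normalized count of the 20 genes was 3060 and 3061 in WT and 2586 and 2643 in the KO-labelled libraries, a ratio of 0.854. As a share of all counts this was 0.34% and 0.336% against 0.3% and 0.302%.

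**Figure D3:**
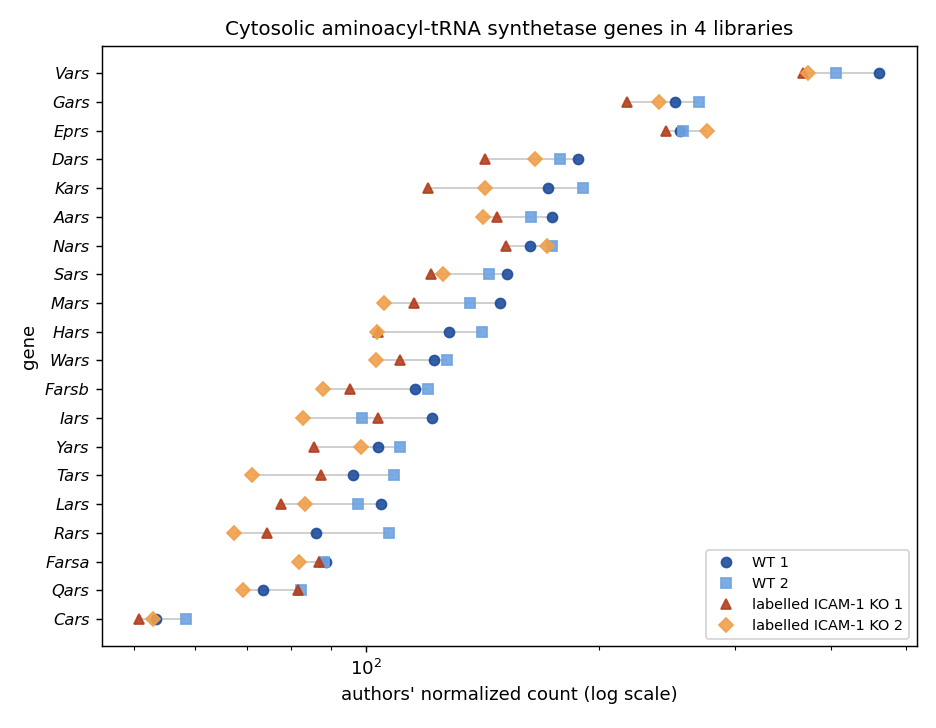
Normalized counts (x axis, log scale) of the 20 cytosolic synthetase genes (y axis) in the 4 libraries, with circles and squares for WT and triangles and diamonds for the KO-labelled libraries. The latter lie to the left of both WT libraries for 16 genes, and overlap with them for Eprs, Iars, Nars and Qars.

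By structural class, the genes that fell were both of class II. Eprs, whose prolyl part is of class II, was counted in class I by its glutamyl part. Of the 10 class I genes none passed the test, 7 were separated downward and the median log2 fold change was -0.20. Of the 10 class II genes Hars and Kars fell, 9 were separated downward and the median was -0.23. Among the 8 synthetase genes of the multi-tRNA synthetase complex Kars alone passed, 5 were separated downward and the median was -0.26. Among all tested genes, 4.97% fell and 31.3% were separated downward. The difference between classes was not tested.

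Among the 15 amino acid response genes, 2 enzymes of serine, glycine and one-carbon synthesis fell, and no sensor, transcription factor or feedback gene passed the test. Phgdh, Psat1 and Psph catalyse the successive steps from a glycolytic intermediate to serine. Shmt1 in the cytosol and Shmt2 in mitochondria convert serine to glycine and hand 1 carbon to folate, and Mthfd2 carries that carbon further in mitochondria. Psat1 and Shmt2 fell, and 5 of these 6 genes were separated downward, the exception being Mthfd2. Their summed normalized count was 854 and 877 in WT and 685 and 700 in the KO-labelled libraries, a ratio of 0.8. The median log2 fold change of the 6 genes was -0.34. By comparison, 4.97% of all tested genes fell and 31.3% were separated downward.

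Shmt2 (ENSMUSG00000025403.5, chr10:127517123-127522444 of mm10, minus strand) had the smallest adjusted p of the 31 genes. Its normalized counts were 281 and 269 in WT and 205 and 212 in the KO-labelled libraries. The groups did not overlap and each pair lay close together, with a decrease of 22.9% (log2 fold change -0.38, standard error 0.0852, edgeR adjusted p = 0.0228). Psat1 (ENSMUSG00000024640.9, chr19:15904678-15947337 of mm10, minus strand), the phosphoserine aminotransferase, had 177 and 172 in WT and 136 in both KO-labelled libraries. It was 20.6% lower, again without overlap (log2 fold change -0.33, standard error 0.0883, edgeR adjusted p = 0.0388). Each of the genes overlaps a gene on the other strand, Shmt2 the gene Ndufa4l2 and Psat1 the gene Gm3329. Left without 1 library, Psat1 lost the call in every case (adjusted p 0.0999 to 0.137). Shmt2 lost it without WT 1, WT 2 or the first KO-labelled library (adjusted p 0.0982, 0.0679 and 0.0895) and kept it without the second (adjusted p 0.0387), with a log2 fold change from -0.41 to -0.34.

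Phgdh, the first enzyme of serine synthesis and the second most abundant of the 15 genes, had 211 in both WT libraries and 188 and 184 in the KO-labelled libraries. The pairs were separated by a small step (log2 fold change -0.15, standard error 0.0843, edgeR adjusted p = 0.255). Shmt1 had the lowest log2 fold change of all tested members, -0.47, from 50.2 and 47.3 in WT to 37.2 and 31.8 (standard error 0.138, edgeR adjusted p = 0.0523). It missed the threshold. Psph, the phosphoserine phosphatase, had 55.3 and 56.5 against 46.3 and 52.6 (log2 fold change -0.15, edgeR adjusted p = 0.466, and -0.26 to -0.05 with 1 library left out). Mthfd2 rested on 1 library, with 80.0 and 121 in WT and 72.7 and 83.6 in the KO-labelled libraries. Its log2 fold change was -0.34 with all libraries (edgeR adjusted p = 0.247), -0.61 without WT 1 (adjusted p 0.0471) and -0.01 without WT 2 (adjusted p 0.986).

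Asns, which makes asparagine and is a standard readout of ATF4 activity, had 37.2 and 38.3 in WT and 26.2 and 29.7 in the KO-labelled libraries. The groups did not overlap, with a log2 fold change of -0.41 (standard error 0.149, edgeR adjusted p = 0.104). Cth, the last enzyme of the pathway from methionine to cysteine, was nearly absent, with 10 and 18 counts against 11 and 12.

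Atf4 (ENSMUSG00000042406.8, chr15:80255184-80257541 of mm10, plus strand), the third highest of the 15 genes per kilobase of exon in WT at 64.9 after Shmt2 (88.6) and Phgdh (84.8), was not lower. Its normalized counts were 148 and 158 in WT and 168 and 193 in the KO-labelled libraries. Both of the latter were above both WT libraries, with a log2 fold change of 0.27 that did not pass the test (standard error 0.104, edgeR adjusted p = 0.121) and ran from 0.15 to 0.37 with 1 library left out. Cebpb, a dimer partner of ATF4, overlapped between the labels, with 112 and 67.4 in WT and 101 and 129 in the KO-labelled libraries. Its log2 fold change of 0.39 (edgeR adjusted p = 0.262) became 0.80 without WT 1 (adjusted p 0.0439) and 0.06 without WT 2 (adjusted p 0.844), so it was set by the WT library kept. Eif2ak4, the GCN2 kinase gene, also overlapped, with 16.3 and 24.6 against 19.9 and 16.3 (log2 fold change -0.16, edgeR adjusted p = 0.706). Atf5, a related factor, was low at 41.9 and 21.1 estimated counts in WT and 17.1 and 14.0 in the KO-labelled libraries.

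The feedback genes were low. Sesn2, which encodes the leucine-binding stress protein sestrin 2, had normalized counts of 9.31 and 6.97 in WT and of 14.6 and 14.5 in the KO-labelled libraries. It had the highest log2 fold change of the tested members, 0.87, and just missed the threshold (standard error 0.251, edgeR adjusted p = 0.0506). It overlaps Gm12981 on the same strand, so part of its count may belong to that gene. Chac1 had 2 and 29 counts in WT against 57 and 95. These counts did not overlap, and edgeR's own low count filter, under which Chac1 was tested, gave an adjusted p of 0.0946, and a fit without a filter gave 0.165. Trib3, which restrains ATF4, had 74 and 46 counts against 31 and 95, so that the WT libraries lay between the others.

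**Figure D4:**
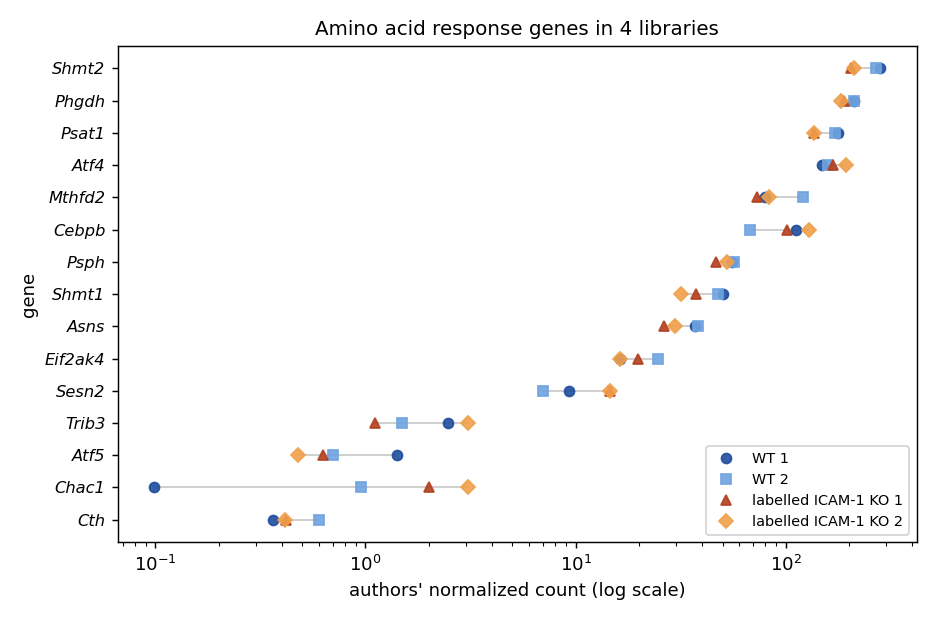
Normalized counts (x axis, log scale) of the 15 amino acid response genes (y axis) in the 4 libraries, with circles and squares for WT and triangles and diamonds for the KO-labelled libraries. The 5 enzymes Shmt2, Phgdh, Psat1, Psph and Shmt1 and also Asns and Atf5 have the latter to the left of both WT libraries, while Atf4, Sesn2 and Chac1 have them to the right.

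Genes that work beside these were taken from lists of the same pathways. Their counts stand beside the shares over all tested genes, 8.8% risen, 4.97% fallen, 28.3% separated upward and 31.3% separated downward. Of the 6 partners, paralogs and export factors of the synthetases, Eef1e1, a scaffold gene of the synthetase complex, and Xpot, the tRNA exporter, fell. Eef1e1 had normalized counts of 57.3 and 70.0 in WT and of 43.5 and 44.9 in the KO-labelled libraries (log2 fold change -0.50, edgeR adjusted p = 0.0423). Xpot had 83.9 and 91.4 against 69.5 and 60.4 (log2 fold change -0.41, edgeR adjusted p = 0.0471). All 6 genes, with the scaffold genes Aimp1 and Aimp2 and the paralogs Tarsl2 and Aarsd1, were separated downward, and their median log2 fold change was -0.38. Of the 17 mitochondrial synthetase genes Lars2 fell (1296 and 1475 against 1054 and 1108, log2 fold change -0.33, edgeR adjusted p = 0.0462). It made up most of the summed level of the list, 1385 of 1849 in the WT mean. The next highest of the list, Iars2, had a WT mean of 76.4, and Vars, the highest cytosolic synthetase gene, had 434. Why Lars2 stood so far above them was not tested. In that list 7 genes were separated downward and 1 upward, with a median of -0.11.

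The stress genes upstream and beside ATF4 moved in both directions. Of 15 genes of kinases and regulators of eIF2, 3 rose and 3 fell, with 9 separated downward and 4 upward. Ppp1r15a, the phosphatase subunit that reverses eIF2 phosphorylation, rose from 250 and 234 to 326 and 387 (log2 fold change 0.59, edgeR adjusted p = 0.00949). Impact, an inhibitor of GCN2, rose from 11.5 and 11.7 to 22.4 and 26.6 (log2 fold change 1.11, edgeR adjusted p = 0.0103). Eif2ak3, the kinase PERK of the endoplasmic reticulum, rose from 27.7 and 22.6 to 40.6 and 42.6 (log2 fold change 0.76, edgeR adjusted p = 0.0166). Eif2b3, a subunit of the exchange factor of eIF2, fell from 39.5 and 46.1 to 26.3 and 22.7 (log2 fold change -0.78, edgeR adjusted p = 0.0147). The other genes that fell were Eif2b1 and Eif2s2.

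Of 8 other transcription factors of the stress response, 2 rose and none fell, with a median log2 fold change of 0.04. In that list 4 were separated upward and 3 downward, Atf3 among the latter (log2 fold change -0.32, edgeR adjusted p = 0.128). Xbp1, of the unfolded protein response, rose from 160 and 201 to 278 and 276 (log2 fold change 0.64, edgeR adjusted p = 0.00873). Ddit3, which encodes CHOP, rose from 8.45 and 7.33 to 12.4 and 17.4 (log2 fold change 0.95, edgeR adjusted p = 0.0486), and it shares its overlap with Mars. Of 22 tested further targets of ATF4, 3 rose and none fell, with 6 separated upward, 7 separated downward and a median of 0.00. Over all tested genes, 28.3% were separated upward and 31.3% downward. The 3 were Slc38a2, an amino acid transporter (114 and 114 against 176 and 173, log2 fold change 0.64, edgeR adjusted p = 0.00335), Herpud1, of protein quality control in the endoplasmic reticulum (99.3 and 94.7 against 140 and 154, 0.63, adjusted p = 0.00607), and Sqstm1, an autophagy receptor (409 and 419 against 504 and 548, 0.37, adjusted p = 0.0237). Known targets of ATF4 were thus found among the genes that rose as well as among those that fell.

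Of 24 genes of amino acid sensing by mTORC1, 1 rose and 2 fell, with a median of -0.02. Over all tested genes 8.8% rose and 4.97% fell, so counts this small do not set the list apart. Rragd, a Rag GTPase gene, had 0 and 27 counts in WT and 135 and 163 in the KO-labelled libraries (edgeR adjusted p = 0.0134). Castor1, an arginine sensor, fell from 82.3 and 84.1 to 53.8 and 63.2 (log2 fold change -0.48, edgeR adjusted p = 0.0334), and Lamtor1, a lysosomal anchor of mTORC1, fell from 75.4 and 70.0 to 54.3 and 51.8 (-0.43, adjusted p = 0.038).

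**Figure D5:**
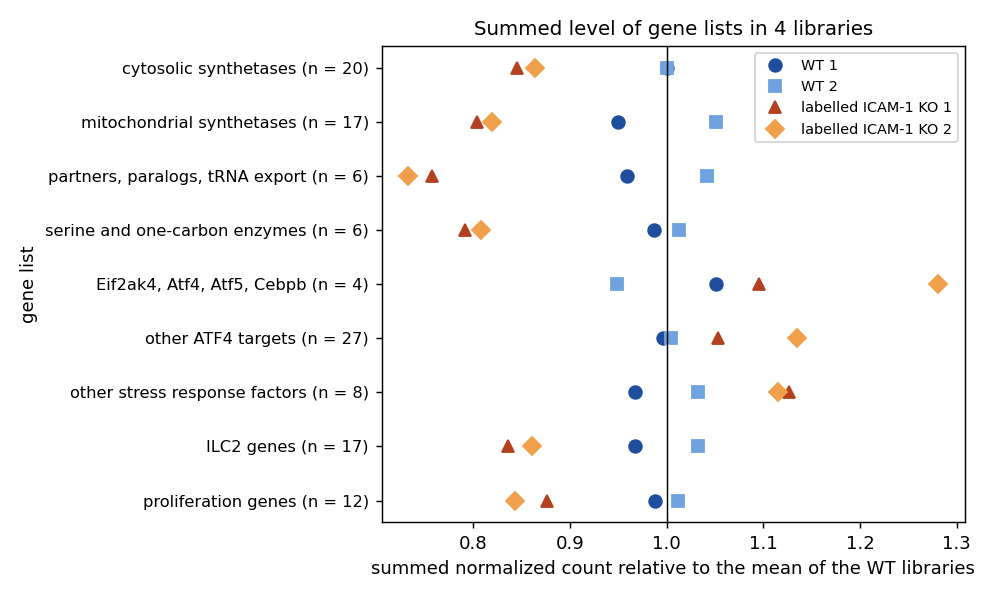
Summed normalized count of each gene list (y axis, with the number of genes n) in the 4 libraries, divided by the mean of the WT libraries (x axis). Of the 9 lists drawn, the KO-labelled libraries lie below both WT libraries for the synthetases and for their mitochondrial counterparts and partners. They also do for the serine and one-carbon enzymes, the ILC2 genes and the proliferation genes. They lie above both for the sensor and factor genes, the other ATF4 targets and the other stress factors. Abundant genes weigh most in a sum. The median log2 fold change was 0.00 for the other ATF4 targets, 0.04 for the other stress factors and -0.06 for the ILC2 genes. The mean sum of the other stress factors went from 550 to 617, and Xbp1 alone from 181 to 277. Lars2 made up 1385 of the mean WT sum of 1849 in the mitochondrial list.

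Markers of other lung cells and of the ILC2 state moved with the same labels. Their counts stand beside 8.8% risen and 4.97% fallen among all tested genes. The 12 endothelial genes all rose, with a summed normalized count of 177 to 183 in WT and 468 to 495 in the KO-labelled libraries, and none of them was at 0. Of the 8 B cell genes 5 rose (1109 to 2326 against 4253 to 5969, none at 0), of the 10 T cell genes 5 rose (567 to 655 against 948 to 1122, none at 0), and of the 11 tested genes of macrophages, monocytes and dendritic cells 8 rose (262 to 272 against 517 to 786, none at 0). Of the 10 tested epithelial genes 6 rose (249 to 457 against 661 to 1545, with Sftpb at 0 in WT 2). Of the 9 tested genes of eosinophils, neutrophils and mast cells 3 rose and 2 fell (496 to 634 against 557 to 685), with the eosinophil gene Epx at 0 in both KO-labelled libraries and Ly6g at 0 in WT 1. None of the 5 tested fibroblast and smooth muscle genes passed (16.8 to 48.1 against 37.9 to 79.1, with Lum at 0 in the second KO-labelled library).

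The shares over all tested genes were 8.8% risen, 4.97% fallen, 28.3% separated upward and 31.3% separated downward. Of the 12 proliferation genes 9 were separated downward and 1 upward, and Pcna and Rrm2 fell. Their median was -0.23 on the log2 scale, and their summed level was 0.859 times that of WT. Ccnb2 was separated upward, with 98.8 and 103 in WT against 134 and 113 (log2 fold change 0.32, edgeR adjusted p = 0.0852). Mki67, which encodes the marker Ki67, was not lower. It overlapped between the labels, with 253 and 269 against 294 and 265 (log2 fold change 0.13, edgeR adjusted p = 0.381). The 17 ILC2 genes had a summed level of 0.848 times that of WT, led by Arg1. Their median log2 fold change was only -0.06, with 9 genes below 0 and 8 above, 8 separated downward and 5 upward. Of them 2 rose (Ptprc and Klrg1) and 5 fell (Il13, Il5, Arg1, Id2 and Il2ra). The ratios of 0.859 and 0.848 stand beside 0.854 for the 20 synthetase genes, but abundant genes weigh most in such sums. In the ILC2 list the mean went from 1583 in WT to 993 for Arg1, from 1352 to 902 for Id2 and from 1145 to 662 for Il5. The mean of Il1rl1 went from 677 to 767 and that of Ptprc from 703 to 908. The ratio of the ILC2 sum thus does not measure the share of ILC2s. The part of other cells, of cell division and of the ILC2 state in the lower levels of the synthetase and serine pathway genes was not tested.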

How the data were processed

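RNA was sequenced in 4 libraries, 2 labelled WT and 2 labelled ICAM-1 KO, grouped by their labels. The authors made cDNA from 10 ng of RNA with a SMARTer low-input kit, aligned NextSeq reads with STAR to mm10 (GENCODE M20) and deposited expected counts per gene, estimated in Partek, in which reads that match several genes are divided. They also deposited a normalized signal for 18324 genes, in which each value is the count plus 1 times 1 factor per library (upper quartile, 41.9 in each). The submitters' processing notes name CASAVA 1.8.2, Partek and STAR 3.5.3. The tables hold no column of other samples (0) and no column of the authors' comparisons. The strand setting of the counting is not given in the sources used here.

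Counts were rounded to whole numbers. Of the 22558 genes, the 11711 whose normalized count averaged 1 or more and summed to 10 or more were tested with edgeR 4.0.16 in R 4.3.3 (glmQLFit with legacy FALSE, upper quartile factors over the kept genes, no covariate), with Benjamini-Hochberg adjustment over all of them. The paper's own test, GSA in Partek, was not run. Standard errors come from the log2 fold change and its F statistic. Means and SDs are over normalized counts, and the libraries, pools of mice, may vary less than single mice. Scripts were tested on simulated data. Reads carried no molecular identifiers, so a low count has more error than counting alone gives.

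All 35 genes are named. Those with an adjusted p under 0.05 and the 3 most abundant of each group are given in full, and of the pathway lists up to 4 genes with the smallest adjusted p. The other values of single genes, Eif2b1, Eif2s2 and the marker genes were chosen after their values were seen. The members and all lists were chosen with earlier results of these data known. For 32 of the 35 genes the coordinates equal GENCODE M21, which was used for exon and coding lengths and overlaps. Of the 35 genes, 20 overlap another gene. Promoter sequences are from RefSeq (GRCm38.p6), matched by symbol (the sites in Aars are not reported here), and their start sites can differ from the gene starts in the deposited tables. Alternatives were TMM factors, DESeq2 1.42.0, the older quasi-likelihood test, limma 3.58.1 on log2 of the deposited signal plus 1, 3 other filters, a replicate block, leaving out each library, and, added after seeing the data, upper quartile factors over every gene and the authors' own factors.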

Additional observations from a re-analysis of the deposited data

How the results depend on the processing

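With 2 libraries on each side, the count of calls depended on the processing more than the direction did. Against 4 lower and 0 higher genes of the 31, DESeq2 called 10 lower and 1 higher, limma 7 lower, and TMM factors 1 higher (Sesn2, adjusted p 0.05). Upper quartile factors over every gene and the authors' own factors, both added after seeing the data, called 8 lower each. Without a filter on low counts, with 22158 genes tested, 0 of 35 were called, and 334 genes rose and 201 fell, against 1030 and 582. The log2 fold changes of Kars, Shmt2, Hars and Psat1 were then -0.48, -0.42, -0.40 and -0.38, and their adjusted p 0.0924, 0.0534, 0.0885 and 0.0772. Of the synthetases, 2 were lower as reported, 7 in DESeq2, 4 in limma, 5 with each added set of factors, 1 in the older quasi-likelihood test, 1 under edgeR's filterByExpr and 0 without a filter. Of the response genes, 1 was higher with TMM factors and in DESeq2, and 0 were lower without a filter. Over all genes DESeq2 called 1131 lower. The share of higher genes among all calls was 63.9% as reported, 50.8% in DESeq2 and 52.1% with factors over every gene. It was 55.9% in limma, 56.6% with the authors' own factors and 62.8% with a replicate block. The median log2 fold change of all genes was 0.01 as reported and -0.03 in DESeq2 and with factors over every gene. It was -0.01 in limma and -0.02 with the authors' own factors. How far the counts of lower members follow these shifts of all genes was not tested.

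Leaving out 1 library gave 0 to 2 lower and 0 to 1 higher genes of the 31, 0 to 1 lower synthetases, 0 to 1 lower and 0 to 1 higher response genes, and 479 to 948 higher and 158 to 388 lower genes in all. The log2 fold change then ranged across 0 for 4 genes, from -0.14 to 0.061 for Nars (above 0 without WT 2, 0.01, or the first KO-labelled library), from -0.13 to 0.084 for Qars (above 0 without WT 2, 0.07, or the second KO-labelled library), from -0.42 to 0.17 for Eif2ak4 (above 0 without WT 2) and from -0.052 to 0.15 for Eprs (below 0 without the second KO-labelled library). None of these genes was called in any of the fits. Rars and Mthfd2 passed without WT 1 and Tars without the first KO-labelled library (adjusted p 0.0422). The cause of the differences between settings was not tested. Over the 11 settings with all 4 libraries, Shmt2, Kars and Psat1 were called in 10, Hars in 8, Mars in 5, Farsb and Shmt1 in 4, Rars in 3, Sesn2 in 2 and Lars and Tars in 1.

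Libraries of the labels share the replicate numbers 1 and 2, but nothing says that a number marks a shared batch, and their deviations from the label means did not move together (r = -0.058 across genes). A replicate block called 5 lower and 0 higher genes of the 31. The depth was similar between libraries and left Atf5, Chac1, Cth and Trib3 at under 100 counts.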
